A study of Mus musculus with 16 samples.

Results

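The nuclear genes of oxidative phosphorylation were followed in bulk RNA-seq of frontal cortex (FC) and cerebellum (Cere) from adult mice that lack Upf3b (Upf3b-KO) and from their control littermates (Ctrl). Members were the protein-coding nuclear genes whose symbol begins with Nduf, with Sdh and then a, b, c or d, with Uqcr, with Cox4, Cox5, Cox6, Cox7 or Cox8, or with Atp5. There were 102 such genes among 55266 genes with a matched transcript, and they carried 452 of 142435 transcripts. By complex, 46 belonged to complex I, 8 to complex II, 8 to complex III, 21 to complex IV and 19 to complex V. Upf3b encodes an adaptor of nonsense-mediated RNA decay (NMD), which removes RNAs that end translation early along with some normal ones. The mice are described as null for Upf3b, with no restriction to a cell type, and each library is of a dissected region with all of its cell types. The groups were FC_Ctrl, FC_Upf3b-KO, Cere_Ctrl and Cere_Upf3b-KO with 4 libraries each, and strain, sex and exact age are not given in the sources used here. The comparison asks which RNAs respond to loss of Upf3b in each of the 2 brain regions.

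Oxidative phosphorylation is the production of ATP in the inner mitochondrial membrane. Complexes I and II take electrons from NADH and succinate, complex III passes them to cytochrome c, complex IV hands them to oxygen, and complex V, the ATP synthase, uses the proton gradient that the others build. Most subunits are encoded in the nucleus and imported, while a core set is encoded in mitochondrial DNA, so that each complex except complex II is assembled from both genomes. Neurons depend on this pathway for most of their ATP. Some subunits of complex IV also exist as isoforms that are restricted to muscle, testis or vascular cells.

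The 15 libraries used held 27660078 to 35238677 counts. The remaining library, Cere_Upf3b-KO replicate 1, held 64981 counts and was left out, which leaves 3 libraries in that group. By the study's description the libraries of a group came from separate mice, and FC and Cere from the same mice. The labels do not name the animal of a library, so comparisons between the regions treat libraries that may share an animal as independent. The biological coefficient of variation within a group was 3.37% to 3.93%, and the p-values measure only this spread between libraries, which may be technical in part. Levels are given as CPM, which are counts divided by the library total, scaled as usual to a common total, and then divided by a composition factor (TMM) of 0.965 to 1.03. The targeted gene, Upf3b, lay between 14.7 and 16.2 CPM in FC_Ctrl and between 0.224 and 0.838 CPM in FC_Upf3b-KO. In cerebellum it lay between 21.3 and 23.99 CPM in Ctrl and between 0.598 and 0.935 CPM in Upf3b-KO.

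In cerebellum of Ctrl mice the defining markers of the labelled tissue were high. The 5 Purkinje cell markers summed to 10620 to 10870 CPM there and to 678 to 696 CPM in FC_Ctrl, and the 5 granule cell markers summed to 3549 to 3609 CPM against 30.01 to 34.2 CPM. The 5 cortical excitatory neuron markers summed to 1566 to 1621 CPM in FC_Ctrl and to 467 to 487 CPM in Cere_Ctrl. Marker sums also moved with genotype. In Cere_Upf3b-KO the Purkinje cell sum was 4050 to 4061 CPM and the granule cell sum 1778 to 1783 CPM, while the 5 oligodendrocyte markers went from 5822 to 5876 CPM in Ctrl to 13260 to 13370 CPM. In FC, the 8 choroid plexus markers went from 23.8 to 24.8 CPM in Ctrl to 2151 to 2203 CPM in Upf3b-KO, and the 8 striatal neuron markers from 167 to 179.9 CPM to 765 to 778 CPM. In Cere the choroid plexus sum went from 31.8 to 36.3 CPM to 1363 to 1382 CPM, and that of the 5 red cell markers from 1280 to 1338 CPM to 2330 to 2375 CPM (506.7 to 519.6 CPM and 413 to 423 CPM in FC). The cortical excitatory neuron sum in FC went to 1369 to 1383 CPM, and that of the 5 astrocyte markers went from 2828 to 2874 CPM to 2176 to 2215 CPM. The oligodendrocyte sum in FC went from 7354 to 7409 CPM to 9478 to 9537 CPM. In Cere the 5 microglia markers went from 73.7 to 76.7 CPM to 91.1 to 96.4 CPM (246.3 to 254.2 CPM and 239.8 to 248.0 CPM in FC). The part of these shifts in the values below was not tested. In bulk tissue, fewer cells of a type and less RNA per cell cannot be told apart.

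In Ctrl tissue the members spanned a wide range of length-scaled levels (TPM, scaled for transcript length and used here to compare genes within a group). The catalytic beta subunit of the ATP synthase, Atp5f1b, was the most abundant in FC_Ctrl at 2121 ± 13.9 TPM (SD, n = 4), followed by the complex IV subunits Cox8a at 1963 ± 69.7 TPM and Cox6a1 at 1615 ± 55.8 TPM. Atp5mk, a small membrane subunit of complex V, followed at 1517 ± 34.01 TPM and Cox4i1 of complex IV at 1455 ± 15.1 TPM. In this order each of the 5 lay above the next by more than the sum of their SDs. In Cere_Ctrl, Atp5f1b was again first at 2945 ± 14.9 TPM and Cox8a was the second at 1484 ± 39.4 TPM. There Cox4i1, at 1414 ± 26.3 TPM, and Ndufa4, at 1398 ± 24.1 TPM, did not differ beyond their spread.

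Within each complex the subunits were not at one level. In FC_Ctrl the subunits of complex I ran from Ndufs6 at 64.1 TPM to Ndufb8 at 713 TPM, and those of complex II from the membrane anchor Sdhc at 92.7 TPM to the flavoprotein Sdha at 505 TPM. Complex III ran from Uqcr11 at 84.7 TPM to Uqcrb at 587 TPM. Complex IV ran from Cox7a2 at 394 TPM to Cox8a, when its restricted isoforms are set aside, and complex V from the c ring gene Atp5mc2 at 72.4 TPM to Atp5f1b. The lowest members were restricted isoforms and near copies, with Cox8b at 0.135 TPM and Ndufb11b, a copy of Ndufb11, at 0.181 TPM. The symbol Atp5po stands for a pair of gene records in the annotation, and the one with identifier ENSMUSG00000116933 was at 0 in all libraries used.

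**Figure D1:**
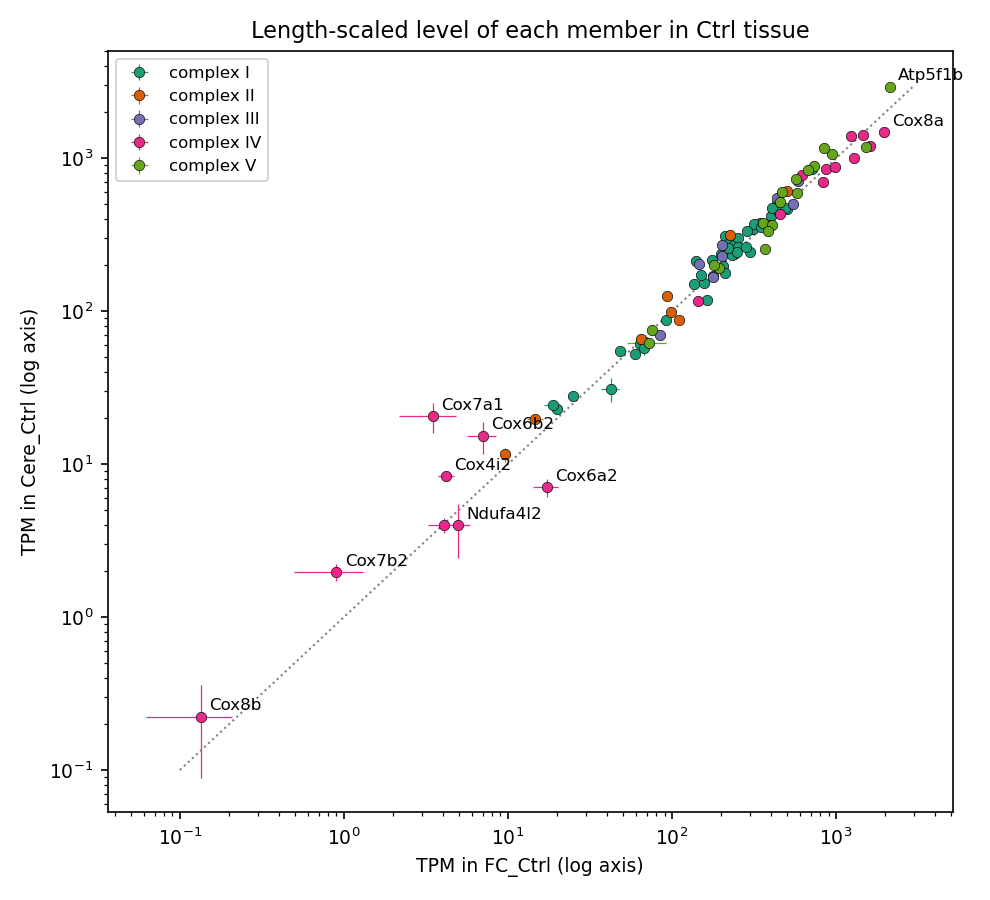
Mean TPM of each member in FC_Ctrl (x axis, log scale) against Cere_Ctrl (y axis, log scale); 99 of the 102 members lie within the axes, bars are SDs over 4 libraries, colours mark the complex and the dotted line marks equal levels. Most members lie close to the line, and among the members tested Cox7a1 (log2 difference 2.45) and Cox6a2 (-1.40) had the largest differences between the regions.

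The regions differed in Ctrl mice for most members, in both directions. Of 98 members tested, 41 were higher in Cere_Ctrl and 45 lower at an adjusted p under 0.05, against 37.8% and 38.7% of all genes tested (76.5% in either direction). With a fold over 1.2 also required, a limit added after seeing the data, these were 14 and 20, against 30.2% and 32.9% (63% in either direction). The median member difference, as log2 of Cere over FC, was -0.05, and it was 0.01 when no composition factor was used, so no direction is given for the set. All 7 core subunits of complex I were higher in cerebellum, and catalytic subunits of complex V were among the members with the smallest adjusted p. Atp5f1b lay at 1547 to 1572 CPM in FC_Ctrl and at 2083 to 2137 CPM in Cere_Ctrl, and the log2 difference was 0.40 ± 0.01 (SE, adjusted p = 1.99e-17). Atp5f1a, the alpha subunit beside it, lay at 878 to 894 CPM and at 1155 to 1170 CPM (0.36 ± 0.01, adjusted p = 2.51e-16). Ndufs1, an iron-sulfur subunit of complex I, was higher by 0.48 in log2, the Rieske subunit of complex III, Uqcrfs1, by 0.37, the complex II anchor Sdhd by 0.36, the stalk subunit Atp5pb by 0.27 and the complex III core protein Uqcrc2 by 0.25. None of these genes overlapped between the regions in their libraries. Of all genes, 36.75% did not overlap with Cere_Ctrl higher and 34.44% with Cere_Ctrl lower, against 41 and 38 of the 98 members.

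Among the genes lower in cerebellum were 17 of the 30 accessory subunits of complex I and 9 of the 11 widely expressed subunits of complex IV. Ndufb9 of complex I lay at 285 to 296 CPM in FC_Ctrl and at 193 to 203 CPM in Cere_Ctrl (log2 difference -0.59 ± 0.02, adjusted p = 4.99e-16). The gene of the natural inhibitor of ATP hydrolysis, Atp5if1, lay at 183 to 192 CPM and at 118 to 126 CPM (-0.65 ± 0.03, adjusted p = 3.30e-15). In complex IV, Cox6a1 was lower by 0.54 in log2, Cox8a by 0.53, Cox6c by 0.47 and Cox5b by 0.34. Atp5mk of complex V was lower by 0.46 and the supercomplex factor Cox7a2l by 0.41. Under the study's own rule of an adjusted p under 0.01 and a fold over 2, 3 members differed between the regions, against 25.1% of all genes. Cox7a1 and Cox7b2 were higher in cerebellum (9.18% of all genes) and Cox6a2 was lower (15.9%).

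In frontal cortex, loss of Upf3b came with small decreases in many members. Of 101 members tested, 66 were lower in Upf3b-KO and 10 higher at an adjusted p under 0.05, against 25.3% and 28% of all genes tested (53.3% in either direction). Without the composition factor the split was 44 lower and 18 higher, and the median of all genes moved from 0.00 to 0.08 in log2 while that of the members moved from -0.12 to -0.04. The changes were small: with a fold over 1.2 also required, 11 were lower and 6 higher, against 10.9% and 20.3% of all genes (31.1% in either direction). The libraries of the genotypes did not overlap in 57 members with Upf3b-KO lower and in 9 with Upf3b-KO higher, against 23.0% and 25.2% of all genes. The CPM of all members together went from between 14880 and 15030 in the Ctrl libraries to between 13490 and 13600 in the Upf3b-KO libraries. As TPM, which uses no composition factor, their sum went from between 36560 and 37150 to between 35530 and 35930, a smaller fall. By the study's rule 6 members were called, against 10.2% of all genes, and all of them were higher (9.16% of all genes) and none lower (1.06%). They were the near copy Ndufb11b and the restricted isoforms Cox8c, Cox8b, Cox7a1, Cox7b2 and Cox6b2. For Ndufb11b and Cox8b none of the Ctrl libraries reached the filter's level of 0.308 CPM, so both passed the filter through the Upf3b-KO libraries, and a call could only be higher. The filter uses CPM before the composition factor, and for Cox8c 2 Ctrl libraries and 4 Upf3b-KO libraries reached its level.

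Sdha, which encodes the flavoprotein that oxidises succinate, had the smallest adjusted p. Its FC_Ctrl libraries held 663, 653, 654 and 656 CPM and its FC_Upf3b-KO libraries 503, 494, 487 and 490 CPM, a log2 change of -0.41 ± 0.01 (adjusted p = 2.99e-16). In complex II 4 of 8 members fell and none rose, with a median of -0.08, while without the composition factor 2 fell and 1 rose (median -0.00066). The Sdha groups were far apart, and the other complex II subunits moved less: Sdhb changed by -0.15 and Sdhc by -0.06 in log2 (0.02 without the composition factor), while Sdhd (0.05) did not pass the test. The Sdhc call was lost without any 1 of FC_Ctrl replicates 3 and 4 and the 4 FC_Upf3b-KO libraries (-0.07 to -0.05). Ndufa12, an accessory subunit of complex I, went from 121, 129, 125 and 122 CPM to 79.3, 82.2, 82.2 and 75.3 CPM (-0.64 ± 0.03, adjusted p = 8.83e-14). Cox7a2l, which helps to join complexes III and IV, went from 83.7, 85.0, 80.4 and 82.1 CPM to 60.4, 56.0, 59.6 and 57.3 CPM (-0.50 ± 0.03, adjusted p = 9.50e-12). Both have a pseudogene that moved the opposite way, which is described with their sequences.

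In complex V 14 of 18 members tested fell and 1 rose (10 and 3 without the composition factor). Atp5f1b went from 1547 to 1572 CPM in FC_Ctrl to 1362 to 1394 CPM in FC_Upf3b-KO (-0.18 ± 0.01, adjusted p = 4.88e-12), and Atp5f1a from 878 to 894 CPM to 797 to 812 CPM (-0.14 ± 0.01, adjusted p = 2.24e-09). The peripheral stalk links the catalytic head to the membrane, and all 4 of its genes that could be tested fell, with Atp5pd (-0.30 ± 0.02) the most, while 3 of the 4 fell without the composition factor. Atp5mk changed by -0.23 ± 0.02. Of the 5 head genes, 4 fell and 1 rose (2 and 1 without the composition factor). The riser was Atp5f1d, the delta subunit, which went from 134, 139, 141 and 134 CPM to 157, 151, 154 and 152 CPM (0.17 ± 0.02, adjusted p = 2.03e-06). The 3 genes that encode the identical c ring subunit did not move as a group. Atp5mc3 fell (-0.13 ± 0.02), while Atp5mc1 (0.02) and Atp5mc2 (-0.13) did not pass the test.

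In complex I, 31 members fell, 3 rose and 12 were not called, with a median change of -0.13 in log2. Without the composition factor 21 fell and 6 rose, with a median of -0.05. The 7 core subunits, which carry the redox centres, all fell, by 0.07 to 0.19 on the log2 scale, but without the composition factor 3 of the 7 fell and none rose. Of 30 accessory subunits 21 fell and none rose (16 and 2 without the factor). Among the 8 assembly factors, Ndufaf2 (-0.53), Ndufaf7 (-0.37) and Ndufaf1 (-0.18) fell, and Ndufaf6 (0.26) and Ndufaf5 (0.16) rose. Without the composition factor 2 fell and 3 rose, since Ndufaf1 (-0.10) no longer passed and Ndufaf3 (0.14) did. These were named after their values were seen. Ndufb8, the complex I subunit with the highest length-scaled level, changed by -0.13 ± 0.02, and Ndufs6, the lowest, by -0.01 ± 0.03 (0.07 without the composition factor), which is called in neither.

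Complex III had 6 lower and 0 higher of 8, with a median of -0.09. Without the composition factor 2 were lower and 1 higher, with a median of -0.01. Uqcrb went from 136 to 142 CPM to 122 to 125 CPM (-0.18 ± 0.02), and Uqcr11 changed by -0.08 ± 0.03, a call that is lost without the composition factor (-0.01) and without replicate 2 or 4 of either genotype (-0.08 to -0.06). In complex IV as a whole 11 members fell and 6 rose (9 and 7 without the composition factor), and 9 of its 11 widely expressed subunits fell and 1 rose. Cox4i1 went from 478, 483, 490 and 487 CPM to 408, 407, 414 and 429 CPM (-0.22 ± 0.02, adjusted p = 2.40e-10). Cox7a2 (-0.21), Cox7b (-0.19), Ndufa4 (-0.18), Cox6c (-0.16) and Cox6b1 (-0.14) fell as well. The exception was Cox8a, with 446 to 486 CPM in FC_Ctrl and 497 to 500.1 CPM in FC_Upf3b-KO (0.11 ± 0.02, adjusted p = 5.34e-05). Cox6a1 (-0.05) passed the test with the composition factor and was 0.02 without it, and the call was also lost without FC_Ctrl replicate 2 or FC_Upf3b-KO replicate 1, 3 or 4 (-0.05 to -0.03).

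**Figure D2:**
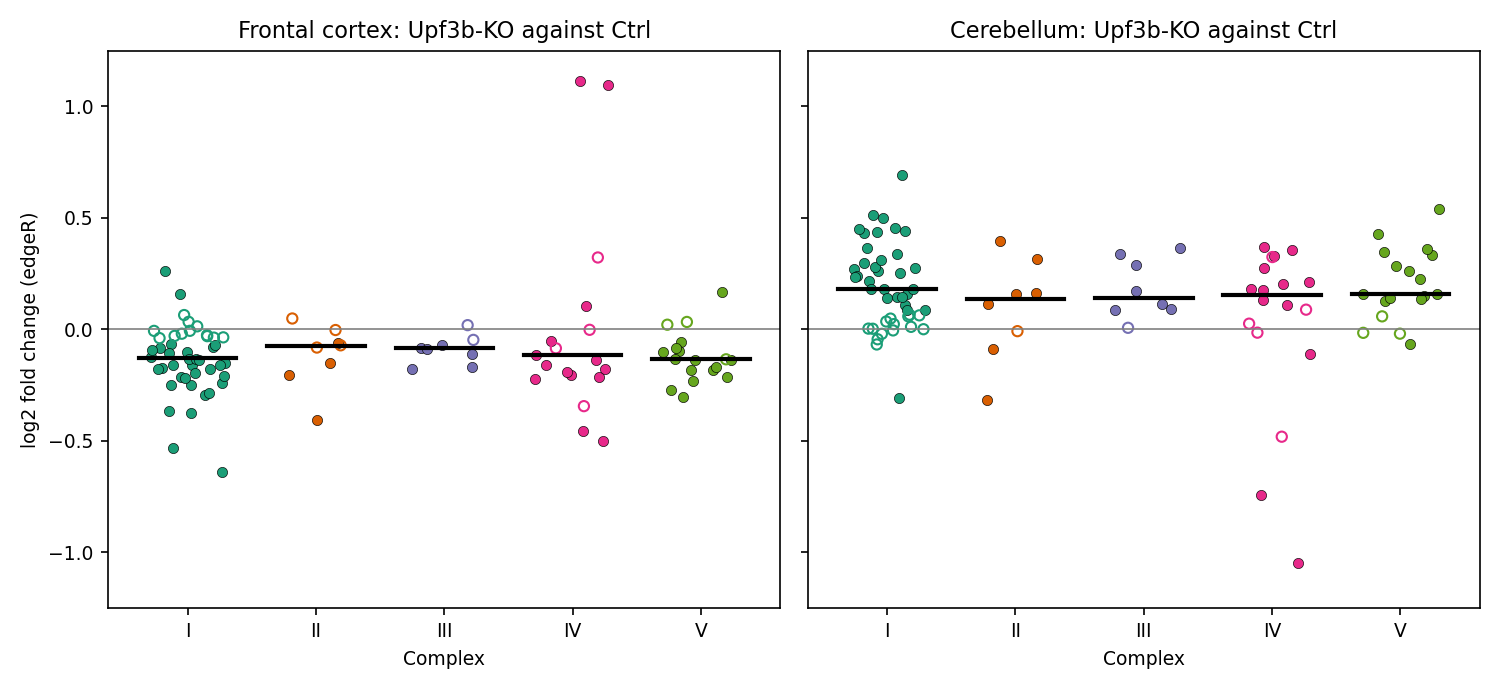
Log2 fold change of Upf3b-KO over Ctrl (y axis) for each member tested in FC and in Cere, grouped by complex; filled points passed an adjusted p of 0.05, open points did not, and bars mark the median of a complex. The axis ends at 1.2 on both sides, which leaves out 4 members in FC and 2 in Cere; the medians lie between -0.14 and -0.08 in FC and between 0.14 and 0.18 in Cere.

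In cerebellum the same comparison gave mostly increases. Of 99 members tested, 67 were higher in Upf3b-KO and 8 lower, against 33.1% and 31.3% of all genes tested (64.4% in either direction). Without the composition factor the counts were 78 and 6. With a fold over 1.2 required, 31 were higher and 5 lower, against 25.7% and 21.3% of all genes (47% in either direction). The libraries of the genotypes did not overlap in 64 members with Upf3b-KO higher and in 11 with Upf3b-KO lower, against 31.8% and 32.0% of all genes. The CPM of all members together went from between 15700 and 15820 to between 16980 and 17080, and as TPM from between 38030 and 38890 to between 42940 and 43290. By the study's rule 3 members were called, against 13.2% of all genes. Cox8b was higher (10.3% of all genes), and Cox6a2 and Cox4i2 were lower (2.86%). Cox6a2 passed the filter through Ctrl alone, so a call could only be lower, and for Cox8b 1 of the Ctrl libraries and the 3 Upf3b-KO libraries reached the filter's level.

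The increases included subunits of the 5 complexes and assembly factors of complexes I and II. Cox5a, a subunit of complex IV, had the smallest adjusted p: Cere_Ctrl held 224, 229, 221 and 221 CPM and Cere_Upf3b-KO 279.6, 287 and 289 CPM (0.37 ± 0.02, adjusted p = 5.44e-12). Atp5mf, a membrane subunit of complex V, went from 95.6, 88.5, 87.8 and 89.8 CPM to 128, 132 and 131 CPM (0.54 ± 0.03, adjusted p = 1.10e-11). The libraries of these genes did not overlap between genotypes. Ndufaf5, which modifies a complex I subunit during assembly, went from 31.4, 31.1, 28.7 and 29.5 CPM to 47.3, 49.3 and 48.3 CPM (0.69 ± 0.04, adjusted p = 4.65e-11). The accessory subunits Ndufc1 (0.51 ± 0.03), Ndufb5 (0.50 ± 0.03) and Ndufs6 (0.45 ± 0.03) rose by similar amounts, and Ndufab1, the mitochondrial acyl carrier protein, by 0.36 ± 0.02. In Ndufs6 the 4 Ctrl libraries lay between 49.51 and 49.95 CPM and the 3 Upf3b-KO libraries between 67.3 and 67.8 CPM.

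Of the 30 accessory subunits of complex I 21 rose and 1 fell. Of the 7 core subunits 3 rose and 4 were not called, among them Ndufs1 (-0.01), while without the composition factor all 7 rose. In complex V the 3 c ring genes rose, Atp5mc1 from 165 to 171 CPM to 217 to 233 CPM (0.43 ± 0.03, adjusted p = 2.05e-11), Atp5mc2 by 0.33 ± 0.07 and Atp5mc3 by 0.16 ± 0.02. The catalytic genes Atp5f1b (-0.02) and Atp5f1a (-0.02) were not called, and both were at 0.03, with adjusted p of 0.0178 and 0.0143, when no composition factor was used. In complex III 7 of 8 members rose, and Uqcrb (0.01) was not called. In complex IV 10 of 11 widely expressed subunits rose, Cox7b by 0.35, Cox6b1 by 0.33, Cox4i1 and Cox8a by 0.18 and Cox6a1 by 0.11, and Cox7a2 (0.03) was not called.

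Of the 8 members lower in cerebellum, 3 were restricted isoforms of complex IV, described further on. The others were Ndufa12, from 113 to 120.1 CPM to 91.3 to 96.2 CPM (-0.31 ± 0.03, adjusted p = 2.13e-08), Sdhaf1, an assembly factor of complex II, from 19.2 to 20.9 CPM to 14.1 to 17.5 CPM (-0.32 ± 0.07), Sdha (-0.09 ± 0.01), Atp5pd (-0.07 ± 0.02) and Cox7a2l (-0.11 ± 0.03). The last 2 calls are lost without the composition factor, at -0.01 and -0.06, and Sdha is then at -0.04 (adjusted p = 0.0227). With their pseudogene copies added, Ndufa12 (0.08) and Cox7a2l (0.09) turn to rises that pass the test. Sdha lay at 735 to 761 CPM in Ctrl and at 693 to 700.3 CPM in Upf3b-KO, and its groups did not overlap.

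The difference between the changes in the 2 regions was tested as the region by genotype term. It passed for 85 of 101 members, with 80 relatively higher in cerebellum and 5 relatively lower, against 24.2% and 23.8% of all genes tested (48% in either direction). The counts were 80 and 5 as well without the composition factor. Of 99 members tested in both regions, 43 (43.4%) were called lower in FC and higher in Cere, and 7.94% of all genes tested in both were. These were 33 members without the composition factor. Another 5 were lower in both regions (12.9% of all genes), 5 were higher in both (13.9%), 18 were lower in FC with no call in Cere (6.04%), and 19 were higher in Cere with no call in FC (12.1%). The median of the term over the members was 0.29 in log2, against -0.01 over all genes. Under the study's thresholds 4 members passed, against 9.4% of all genes, and all were relatively lower in cerebellum (3.04%, with 6.36% relatively higher): Cox6a2, Cox7b2, Cox6b2 and Cox7a1.

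Ndufb6, an accessory subunit of complex I, had a large term among the members with the smallest adjusted p. It went from 79.5 to 84.7 CPM to 70.0 to 73.8 CPM in FC and from 69.5 to 74.1 CPM to 93.2 to 98.5 CPM in Cere, and the term was 0.60 ± 0.04 (adjusted p = 5.07e-12). The smallest adjusted p was that of Cox4i1, whose libraries lay at 434 to 449 CPM in Cere_Ctrl and at 488 to 501 CPM in Cere_Upf3b-KO, opposite to its fall in FC (0.39 ± 0.02, adjusted p = 4.96e-13). Cox6c (0.42), Cox7b (0.53) and Cox6b1 (0.46) of complex IV, Atp5mk (0.48) of complex V and Ndufa10 (0.49) of complex I crossed in the same way. Sdha differed in degree and not in sign (0.31 ± 0.02, adjusted p = 7.82e-13), since it fell in both. Of 77 widely expressed subunits 71 had a term above 0 that passed and none had one below 0, and in complexes III and V every member tested passed, 8 of 8 and 18 of 18. Of these Atp5mc2 no longer passed without FC_Ctrl replicate 4, FC_Upf3b-KO replicate 2, Cere_Ctrl replicate 2 or Cere_Upf3b-KO replicate 3 (0.27 to 0.42).

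**Figure D3:**
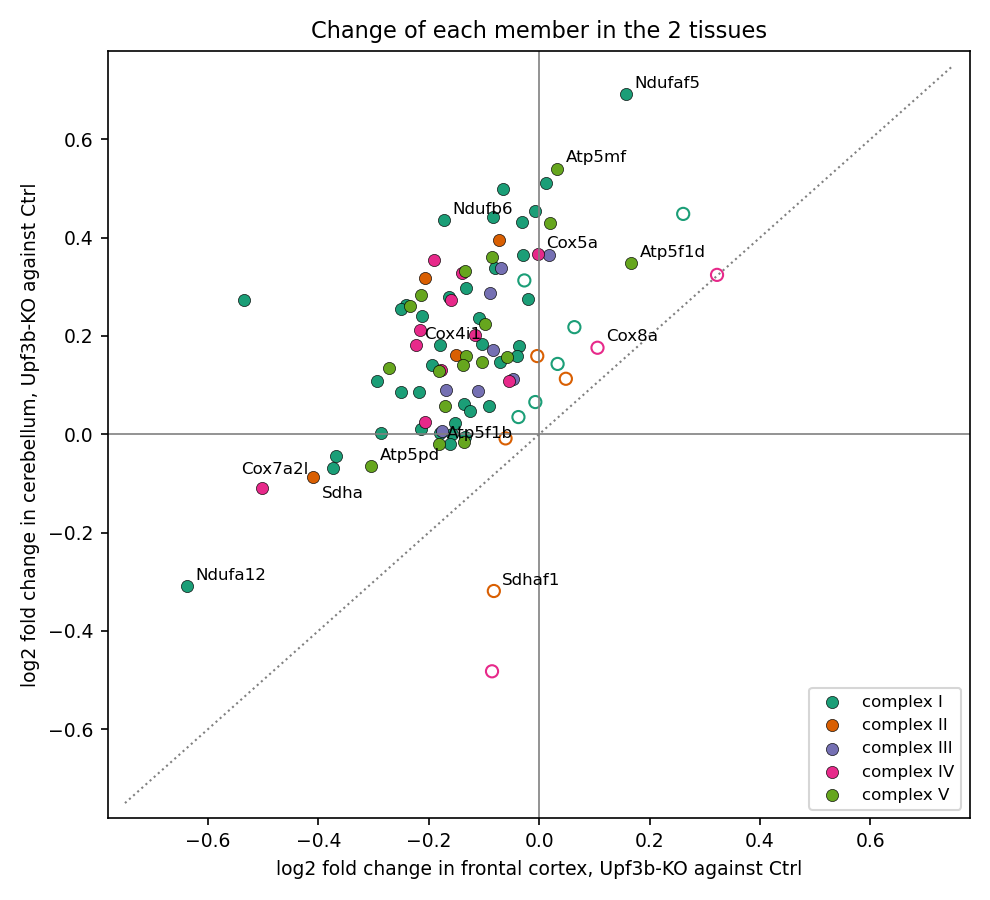
Log2 fold change of Upf3b-KO over Ctrl in FC (x axis) and in Cere (y axis) for 93 of the 99 members tested in both; filled points passed the region by genotype test at an adjusted p of 0.05 and open points did not, and the dotted line marks equal change. Most filled points sit in the upper left, lower in FC and higher in Cere, and Ndufa12, Sdha and Cox7a2l sit below 0 in both; the 6 members not drawn lie outside the axes.

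The isoforms of complex IV with restricted expression lay at levels of a few CPM or less. Cox8b in FC and Cox6a2 in Cere passed the filter through 1 genotype alone, so their values are a description. Cox8c, an isoform known from testis, went from 0.529, 0.313, 0.270 and 0.608 CPM to 2.47, 2.53, 3.80 and 2.84 CPM in FC (2.76 ± 0.26, adjusted p = 8.03e-09). Cox6b2 and Cox7b2, also known from testis, went from 1.40 to 2.13 CPM to 2.72 to 3.87 CPM (1.10 ± 0.17) and from 0.435 to 1.22 CPM to 1.46 to 2.40 CPM (1.116 ± 0.29). The muscle isoform Cox7a1 rose from 0.359 to 0.961 CPM to 1.37 to 2.13 CPM (1.34 ± 0.28), and Cox8b, also of muscle, lay at 0.0625 to 0.218 CPM in Ctrl and at 0.384 to 0.694 CPM in Upf3b-KO. For Cox8c, Cox6b2, Cox7b2 and Cox7a1 the FC libraries of the genotypes did not overlap. The same held for 25.2% of all genes with Upf3b-KO higher. In Cere, Cox8b lay at 0.0597 to 0.328 CPM in Ctrl and at 0.473 to 0.627 CPM in Upf3b-KO.

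In the same FC libraries other testis genes rose. All 12 of the male germ cell markers were higher in FC_Upf3b-KO, with a sum of 33.04 to 35.01 CPM in Ctrl and of 236 to 247 CPM in Upf3b-KO. Cyct, the testis form of cytochrome c, was at 0 in 3 FC_Ctrl libraries and at 0.0320 CPM in the other, and lay at 0.576 to 1.18 CPM in FC_Upf3b-KO. It passed the filter through Upf3b-KO alone, so a call could only be higher. Skeletal and cardiac muscle markers, in contrast, summed to 26.7 to 29.1 CPM in FC_Ctrl and to 28.5 to 30.96 CPM in FC_Upf3b-KO. In cerebellum the male germ cell sum was 31.7 to 34.4 CPM in Ctrl and 27.3 to 28.6 CPM in Upf3b-KO, although 8 of the 10 markers tested were higher and 1 lower. The part of these markers in the isoform values was not tested.

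Cox6a2, the heart and muscle isoform of subunit VIa that fast-spiking interneurons also use, had no counts in cerebellum of Upf3b-KO mice. Its Cere_Ctrl libraries held 1.87, 2.15, 2.12 and 1.57 CPM, and it was at 0 in all 3 Cere_Upf3b-KO libraries. With 3 counts per library as the floor, it was at least 21.5-fold lower. In FC it was present in both genotypes, at 4.01 to 6.13 CPM in Ctrl and at 3.47 to 3.93 CPM in Upf3b-KO (-0.46 ± 0.13, adjusted p = 0.00574), and the region by genotype term passed (adjusted p = 3.51e-11). The 5 parvalbumin interneuron markers summed to 1701 to 1718 CPM in Cere_Ctrl and to 1431 to 1436 CPM in Cere_Upf3b-KO, with 2 of the 5 higher and 2 lower. They summed to 237.1 to 247.6 CPM in FC_Ctrl and to 282.9 to 291.5 CPM in FC_Upf3b-KO, with 4 higher and 1 lower. Muscle markers summed to 1.48 to 2.45 CPM in Cere_Ctrl and to 5.86 to 7.07 CPM in Cere_Upf3b-KO, with 1 of the 4 tested higher, 1 lower and a median of -0.07 in log2. The part of these markers in the Cox6a2 values was not tested.

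Cox4i2, the isoform of subunit IV that vascular and lung cells use at low oxygen, went from 2.33 to 2.66 CPM to 0.940 to 1.49 CPM in Cere (-1.05 ± 0.20, adjusted p = 0.000141) and was not called in FC (-0.34). The pericyte and vascular smooth muscle markers summed to 113 to 118 CPM in Cere_Ctrl and to 99.1 to 103 CPM in Cere_Upf3b-KO, with 2 of the 8 higher, 2 lower and a median of 0.05 in log2. The part of these markers in the Cox4i2 values was not tested. Its region by genotype term was -0.72 with an adjusted p of 0.0481, a call that 14 of the 25 alternatives lost. It held without FC_Ctrl replicate 1 or 4, FC_Upf3b-KO replicate 2 or Cere_Upf3b-KO replicate 3 and was lost without any other library (-0.75 to -0.54). Cox7b2 fell in Cere from 1.40 to 1.89 CPM to 0.879 to 1.14 CPM (-0.74 ± 0.23), the opposite of its rise in FC, with a term of -1.87 ± 0.39 (adjusted p = 0.000237). The term was also below 0 for Cox6b2 (-1.122) and Cox7a1 (-1.26), which rose in FC and were not called in Cere (-0.02 and 0.09). Ndufa4l2, the low-oxygen partner of Ndufa4, was at 0.32 in both regions and not called in either.

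**Figure D4:**
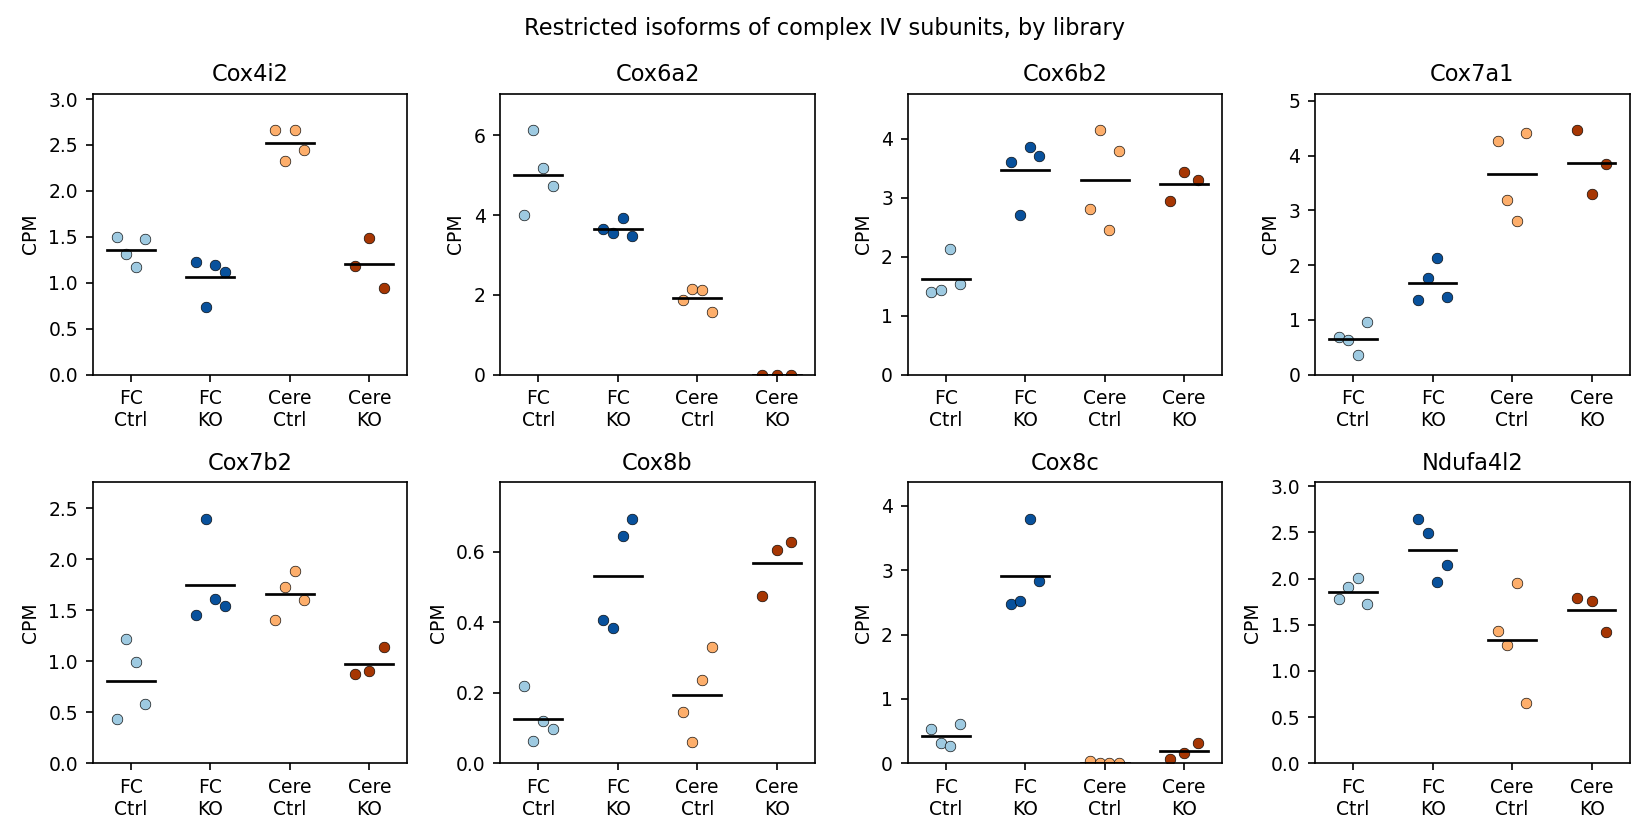
CPM (y axis, linear and set for each gene) of the 8 restricted complex IV isoforms in the libraries of the 4 groups (x axis, with KO for Upf3b-KO); each point is 1 library, the line is the group mean and the shallow library is not drawn. Cox6a2 has no counts in the 3 Cere_Upf3b-KO libraries and lies at 1.57 to 2.15 CPM in Cere_Ctrl, and Cox8c, Cox6b2, Cox7b2 and Cox7a1 sit above their Ctrl libraries in FC_Upf3b-KO.

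Many members share sequence with other genes. For 15 of them at least 50% of the main transcript's stretches of 31 bases occur in another annotated gene, and RSEM divides such reads by its model, so the values of these genes are less certain. Among the 15 are Atp5mc2, with 88.3% in Gm70834, and Ndufb8, with 67.2% in Gm20538. In 2 of the most strongly lowered members, Ndufa12 and Cox7a2l, a processed pseudogene on another chromosome rose while the member fell. The windows below hold a difference between each member and its copy, which is what lets reads be told apart, and the differing bases are in capitals (GRCm39, GENCODE transcripts).
Ndufa12-204: agaagacaaatatggAaataaatactacga
Ndufa12-ps: agaagacaaatatggGaataaatactacga
Cox7a2l-201: gaaggctgatggtTtccacctgaa
Gm6969: gaaggctgatggtGTGCCCAtccacctgaa

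The Ndufa12 window lies in the coding exons at chr10:94035845-94035874 (plus strand) and that of its pseudogene at chr5:130217319-130217348 (plus strand). Over the 402 bases of the pseudogene only 2 differed, an identity of 99.5%. The Cox7a2l window spans an exon junction within chr17:83810144-83811529 (minus strand), and the Gm6969 window lies at chr12:24688780-24688809 (minus strand). Gm6969 has 2 differing bases over 336 aligned bases (99.4% identity) and 6 inserted bases. Of the stretches of 31 bases in the main transcript, 25.8% of those of Ndufa12 occur in its copy and 18.2% of those of Cox7a2l in Gm6969. Reads from these stretches fit both genes of a pair, and how they were divided rests on the model.

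Ndufa12-ps lay at 0.622, 1.351, 1.203 and 1.545 CPM in FC_Ctrl and at 23.6, 24.9, 22.8 and 22.6 CPM in FC_Upf3b-KO (4.32 ± 0.13, adjusted p = 4.29e-17). In Cere it went from 1.24 to 1.48 CPM to 27.2 to 32.9 CPM (4.48 ± 0.10). The sum of Ndufa12 and its copy went from 122 to 131 CPM to 97.9 to 107 CPM in FC, still lower. In Cere it went from 114.5 to 121.6 CPM to 123.4 to 125.5 CPM, so the fall of Ndufa12 there turned into a small rise (0.08, adjusted p = 0.0138). Gm6969 lay at 0.0833 to 0.203 CPM in FC_Ctrl and at 8.83 to 10.1 CPM in FC_Upf3b-KO (6.10 ± 0.19), and in Cere it went from 0.0385 to 0.118 CPM to 8.02 to 9.45 CPM (6.57 ± 0.22). The sum of Cox7a2l and Gm6969 went from 80.6 to 85.1 CPM to 66.02 to 69.7 CPM in FC, and from 63.5 to 64.3 CPM to 64.9 to 68.5 CPM in Cere (0.09, adjusted p = 0.0209). With the copies added, both members were still lower in FC, and in Cere both were slightly higher.

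**Figure D5:**
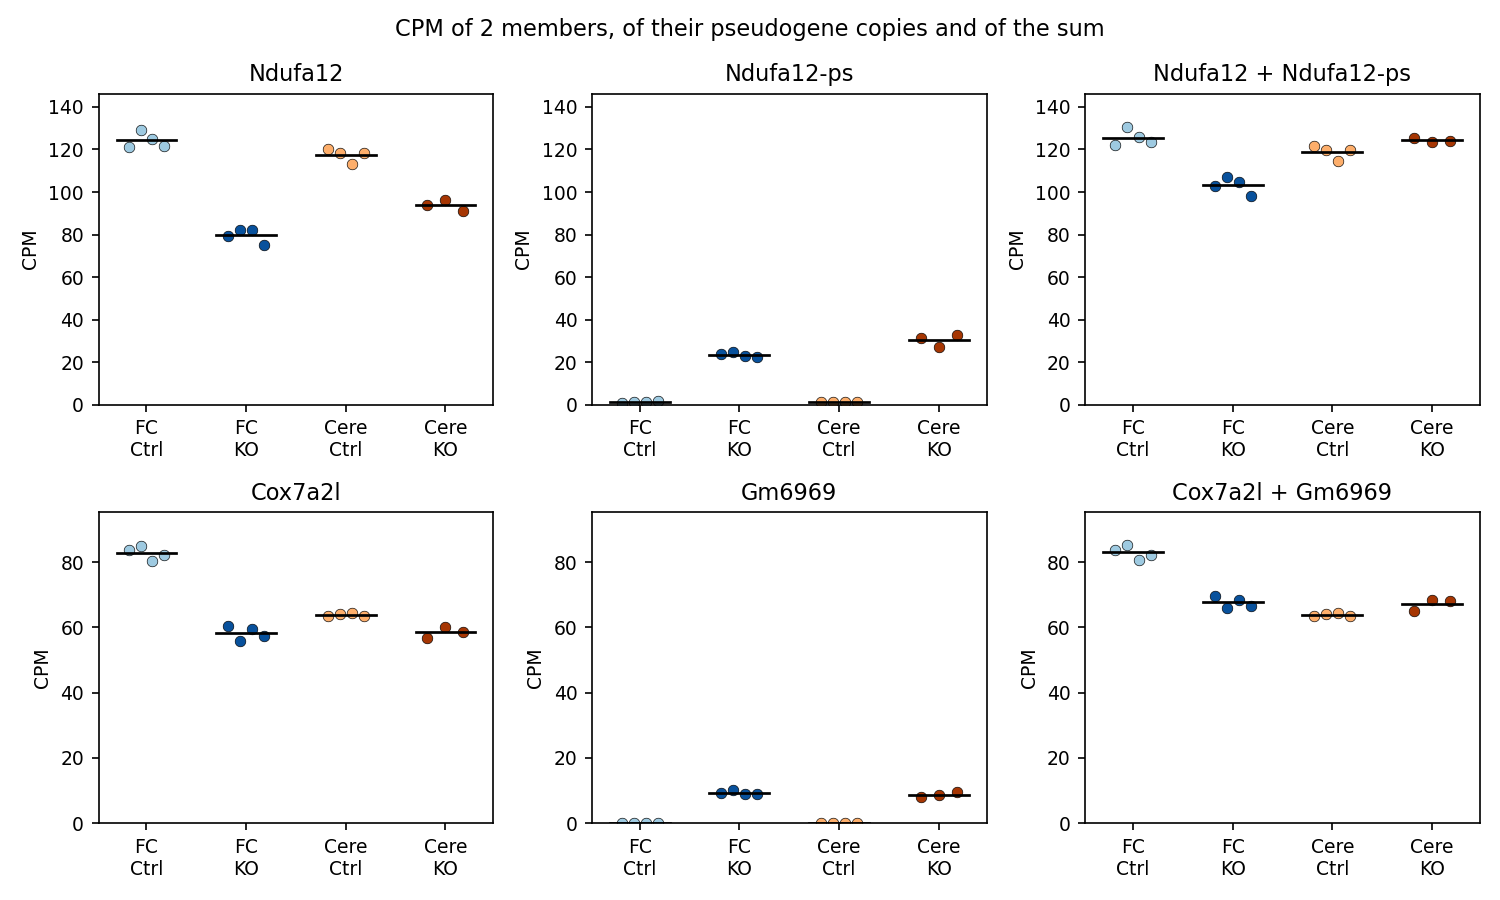
CPM (y axis, from 0) in each library of the 4 groups (x axis) for Ndufa12 and Cox7a2l, for the pseudogene of each and for their sum; each point is 1 library. The pseudogenes are near 0 in Ctrl and reach 22.6 to 32.9 CPM (Ndufa12-ps) and 8.02 to 10.1 CPM (Gm6969) in Upf3b-KO, and with the copy added Upf3b-KO lies below Ctrl in FC and just above it in Cere. The line in each column is the group mean.

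Summing every member with the pseudogenes that hold at least 10% of its main transcript, an alternative added after seeing the data, joined 43 pseudogenes to 26 members. The counts were then 66 lower and 11 higher in FC and 71 higher and 7 lower in Cere.

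The transcripts of the members were also tested one by one. In FC 14 of 305 were higher and 60 lower, against 8.67% and 7.68% of all transcripts tested (16.4% in either direction), and 24 were higher and 35 lower without the composition factor. In Cere 94 of 326 were higher and 2 lower, against 12.3% and 10.3% (22.6%). With the replicate number as a block the counts were 5 higher and 38 lower in FC and 60 and 1 in Cere. With the shallow library included the Cere counts were 28 and 2. The lower calls in Cere were 4 without Cere_Ctrl replicate 3, Cere_Upf3b-KO replicate 2 or Cere_Upf3b-KO replicate 3, 5 with the stricter filter and 8 with DESeq2. The higher calls in FC were 9 without FC_Ctrl replicate 3 or FC_Upf3b-KO replicate 1, 8 without FC_Upf3b-KO replicate 3 or 4, and 7 with no filter on low counts. Under the study's thresholds for genes 2 were higher and 3 lower in FC (2.76% and 0.463% of all transcripts, 3.22% together), and 3 were higher and 2 lower in Cere (3.45% and 1.31%, 4.76% together). The transcript with the smallest adjusted p in FC was the main one of Sdha, which carried nearly all of the gene's counts (502, 493, 486 and 489 CPM in Upf3b-KO against 652 to 660.4 CPM in Ctrl, -0.40 ± 0.01). Atp5f1b-201 (-0.17), Atp5f1a-201 (-0.12) and Cox7a2l-201 (-0.48) fell as their genes did. In Cere the leading transcripts were Cox5a-201 (0.42 ± 0.02), Atp5mj-201 (0.41 ± 0.02), Cox6c-201 (0.32 ± 0.02), Ndufaf5-201 (0.73 ± 0.04) and Atp5f1d-201 (0.38 ± 0.02). The transcript fits have composition factors of their own, so their changes are not exactly those of the genes.

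In the GENCODE release used here the 2 main transcripts of Ndufa12 differ only in annotation. Ndufa12-201 and Ndufa12-204 have the same sequence of 1255 bases, and their annotated start codons lie 12 bases apart at chr10:94034889-94034918 (plus strand, both start codons in capitals).
Ndufa12: cggaccATGcagatgagaATGgagctggtg

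Ndufa12-201 went from 26.3 to 28.8 CPM to 7.51 to 9.54 CPM in FC (-1.66 ± 0.09, adjusted p = 1.04e-05) and from 23.4 to 26.2 CPM to 10.3 to 11.7 CPM in Cere (-1.08 ± 0.08, adjusted p = 8.37e-05). Ndufa12-204 changed by -0.42 ± 0.05 in FC and by -0.10 ± 0.03, not called, in Cere. With the sequences of the GENCODE release used here, no read can tell these records apart. The counts rest on the authors' release, in which the sequences of these records were not checked. The difference between the 2 records is therefore not interpreted.

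A few transcripts rose in both regions. Uqcr10-203 went from 7.91 to 8.62 CPM to 12.5 to 14.3 CPM in FC (0.70 ± 0.08) and from 8.44 to 12.0 CPM to 21.9 to 23.4 CPM in Cere (1.18 ± 0.12). Ndufv1-204, a transcript with a retained intron of the NADH-binding subunit, went from 0.598 to 1.11 CPM to 1.96 to 4.03 CPM in FC (1.77 ± 0.30) and from 0.830 to 1.57 CPM to 3.48 to 4.71 CPM in Cere (1.90 ± 0.28). Ndufs7-204, also with a retained intron, lay at 0.0365 to 0.114 CPM in FC_Ctrl and at 0.355 to 0.593 CPM in FC_Upf3b-KO, and passed the filter through Upf3b-KO alone, so a call could only be higher. In Cere its groups overlapped, at 0.2685 to 0.4025 CPM in Ctrl and 0.3063 to 0.7115 CPM in Upf3b-KO. Among all member transcripts with a retained intron, 3 of 67 tested, Ndufs7-204 included, were higher in FC and 4 lower, against 2.28% and 2.84% of all such transcripts. In Cere 4 of 75 were higher and none lower, against 2.96% and 6.39%.

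Upf3b acts in NMD, which degrades RNAs whose stop codon lies well upstream of an exon junction (a dEJ, here at least 50 bases). Of the 452 member transcripts 28 are annotated as NMD targets. In FC 17 of these could be tested, and 1 rose and 2 fell, against 8.91% and 1.96% of all such transcripts tested. Atp5mk-204 rose from 0.435 to 0.746 CPM to 1.04 to 1.60 CPM (1.154 ± 0.29, adjusted p = 0.0305), while Ndufa12-203 (-2.28 ± 0.56) and Ndufs4-204 (-0.62 ± 0.15) fell. Ndufa12-203 lay at 0.453 to 1.26 CPM in FC_Ctrl and at 0.0757 to 0.312 CPM in FC_Upf3b-KO, where few counts remain, and it passed the filter mainly through Ctrl. These 3 calls were lost in 8, 8 and 5 of the alternatives, and each was lost without FC_Ctrl replicate 1 or 4 or FC_Upf3b-KO replicate 3 or 4. Without 1 of the libraries that ended a call, Atp5mk-204 was at 1.02 to 1.24, Ndufa12-203 at -2.27 to -1.99 and Ndufs4-204 at -0.59 to -0.54. FC_Ctrl replicate 3 and FC_Upf3b-KO replicate 2 also ended the call of Atp5mk-204, and FC_Upf3b-KO replicate 1 that of Ndufa12-203. In Cere, 78 of 192 protein-coding transcripts of the members rose and 2 fell (in FC 7 of 186 rose and 51 fell). Of those annotated as NMD targets, 19 could be tested in Cere, and 5 rose and none fell, against 9.52% and 2.99%. The 5 were Ndufs6-202 (0.77 ± 0.16), Ndufa3-204 (0.36 ± 0.06), Ndufs4-202 (0.34 ± 0.08), Ndufa10-207 (0.33 ± 0.04) and Atp5pb-203 (0.24 ± 0.05). Ndufs4-202 was lost without Cere_Ctrl replicate 4 or Cere_Upf3b-KO replicate 2 or 4 (0.30 to 0.33), Ndufs6-202 without Cere_Upf3b-KO replicate 2 (0.70), and 4 of the 5 (not Ndufa10-207) with the shallow library included. In FC none of these 5 passed the test, and their changes were -0.15 to 0.40.

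Of these, 3 are shown with the bases before their annotated stop codon, because they made up much of their gene's RNA in Ctrl mice while carrying the NMD annotation (stop codon in capitals).
Atp5pb-203: aaccaaatctggtcctgtgaagagcagTAA
Ndufa3-204: gggcctcgctataattatgcccatgatTAG
Ndufa10-207: cgatggaaggcccctcgacatagagttTAG

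The Atp5pb-203 window lies at chr3:105865250-105865279 (minus strand), and its stop codon is 680 bases upstream of the last exon junction. That of Ndufa3-204 spans a junction within chr7:3620683-3622450 (plus strand) at a distance of 56 bases, and that of Ndufa10-207 lies at chr1:92397719-92397748 (minus strand) at a distance of 673 bases. Atp5pb-203 held 77.0 ± 1.11% of the gene's TPM in FC_Ctrl (SD, n = 4) and 76.8 ± 2.37% in FC_Upf3b-KO, and 75.5 ± 2.57% and 77.3 ± 1.18% in Cere (n = 3 in Upf3b-KO). Ndufa3-204 held 86.1 ± 0.258% and 85.9 ± 1.496% in FC and 87.0 ± 0.824% and 85.7 ± 0.883% in Cere. Ndufa10-207 held 48.1 ± 2.71% and 50.4 ± 1.40% in FC and 45.4 ± 2.90% and 47.4 ± 2.63% in Cere. The mean shares of Atp5pb-203 and Ndufa10-207 differed between genotypes by less than the larger SD of the pair. The genes themselves also rose in Cere, Atp5pb by 0.15, Ndufa3 by 0.34 and Ndufa10 by 0.26 in log2.

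The promoters of the members hold motifs of factors known to act on mitochondrial genes. A window of 250 bases before to 50 bases after the start was found in RefSeq (GRCm38.p6) for 80 of 101 member symbols, 85 windows in all. The motif of nuclear respiratory factor NRF1, which reads GCGCA, any base and then GCGC on either strand, was in 25.9% of them and in 4.6% of all 32851 windows. The ETS motif of the GABP factors, CCGGAAG, was in 24.7% against 8.86%, and the YY1 motif, ATGGCGG, in 16.5% against 4.05%. Among 52 matched members that fell in FC, 26.9% held the NRF1 motif, and among 57 that rose in Cere 29.8% did. The ETS motif was in 30.8% and 28.1% of these, and the YY1 motif in 15.4% and 12.3%. Parts of 4 windows are shown because these members led a comparison and hold the NRF1 motif (in capitals).
Sdha: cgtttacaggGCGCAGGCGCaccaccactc
Atp5pd: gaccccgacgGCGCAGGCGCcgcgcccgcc
Ndufaf5: agtcccgttgGCGCATGCGCctaatagaaa
Ndufs6: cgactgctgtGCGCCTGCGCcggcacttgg

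On GRCm38.p6 these lie at chr13:74350319-74350348 (minus strand, Sdha), chr11:115420041-115420070 (minus strand, Atp5pd), chr2:140170652-140170681 (plus strand, Ndufaf5) and chr13:73328479-73328508 (minus strand, Ndufs6). The last holds the motif as read on the other strand. A match of letters is not evidence of binding. Of the 16 regulators of mitochondrial genes on the list used here, 4 were higher and 1 lower in FC (28% and 25.3% of all genes). In Cere 2 were higher and 8 lower (33.1% and 31.3% of all genes). Without the composition factor these counts were 7 and 0 in FC and 4 and 7 in Cere. Gabpa, the DNA-binding subunit of GABP, went from 54.0 to 58.1 CPM in Cere_Ctrl to 37.6 to 40.2 CPM in Cere_Upf3b-KO (-0.50 ± 0.04, adjusted p = 1.16e-09) and from 38.5 to 41.1 CPM to 34.4 to 37.1 CPM in FC (-0.13 ± 0.04). Between the regions in Ctrl mice, Esrrg, an orphan nuclear receptor, had the largest difference on this list, at 21.8 to 27.3 CPM in FC and 132 to 139 CPM in Cere (2.49 ± 0.05).

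Of the 13 subunits encoded in mitochondrial DNA most were lower in FC, while in Cere the counts depended on the scaling. In FC 12 of the 13 fell and none rose, with a median of -0.19 in log2. The counts were 11 and 0 without the composition factor, with a median of -0.12. The catalytic subunit of complex IV, mt-Co1, went from 7117 to 7266 CPM to 5937 to 5999 CPM (-0.26 ± 0.01, adjusted p = 2.03e-17), and mt-Nd5 of complex I from 2009 to 2032 CPM to 1509 to 1571 CPM (-0.38 ± 0.01). mt-Nd6 (-0.36) and mt-Cytb of complex III (-0.18) fell as well. In Cere 8 of the 13 fell and 2 rose, and the counts were 5 and 3 without the composition factor. mt-Nd5 changed by -0.21 ± 0.01 and mt-Co1 by -0.11 ± 0.01, while mt-Nd1 rose from 2741 to 2791 CPM to 2950 to 2989 CPM (0.12 ± 0.01). The region by genotype term was above 0 and passed for 11 of the 13, among them mt-Nd1 (0.24), mt-Nd5 (0.16) and mt-Co1 (0.14). In Ctrl mice 12 of the 13 were lower in Cere than in FC, with mt-Nd1 (-0.41), mt-Nd5 (-0.37) and mt-Co1 (-0.31) at the smallest adjusted p.

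Other genes of the same organelle were counted for comparison. Of 13 tricarboxylic acid cycle enzymes 8 fell and 1 rose in FC, with a median of -0.07 in log2 (6 and 4, with a median of 0.01, without the composition factor), and 9 rose and none fell in Cere. Of 10 mitochondrial carrier and import genes 7 fell and 2 rose in FC, and 7 rose and 2 fell in Cere. In FC 4 fell and 2 rose without the composition factor. Cytochrome c, Cycs, changed by -0.09 in FC and 0.16 in Cere, and cytochrome c1, Cyc1, by -0.06 and 0.15; the FC calls of both are lost without the composition factor, where Cyc1 was 0.01. The assembly factors that the naming rule leaves out were split in FC, with 8 higher and 9 lower of 44 (15 and 4 without the composition factor), and 23 rose and 6 fell in Cere. One of them is Ttc19 of complex III, which went from 93.9 to 97.4 CPM to 65.5 to 71.5 CPM in FC and from 48.5 to 52.1 CPM to 57.0 to 60.8 CPM in Cere (term 0.73 ± 0.05, adjusted p = 1.93e-12).

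Among genes above 10 CPM, which the 77 widely expressed subunits tested exceed, 37.5% of 10221 genes were called lower and 24.6% higher in FC, and 43.4% of 10175 were called lower and 33.3% higher in Cere. Lower calls were thus the more frequent among well expressed genes in both regions, while among the members they were the more frequent in FC and the less frequent in Cere.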

How the data were processed

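Total RNA of frontal cortex and cerebellum was depleted of ribosomal RNA, and per the labels and the study's methods the libraries were read as paired ends. The authors aligned the reads with STAR 2.5.2b to GRCm39 and deposited RSEM expected counts per transcript, which were rounded here and summed per gene. Whether the counting used strand is not given in the sources used here. Symbols, types and coordinates came from GENCODE vM39, which is not the authors' release. Genes passed edgeR's filterByExpr (minimum count 10, total 15) and were fitted in R 4.3.3 with edgeR 4.0.16 (quasi-likelihood F test, TMM factors, Benjamini-Hochberg adjustment over all genes or transcripts tested). Each region was fitted on its own, and the interaction on 15 libraries. SE is that of the log2 change. Members named were those with the smallest adjusted p in each comparison and direction, the restricted isoforms and the most abundant members. The members and gene lists were chosen with earlier results of these data known. Total counts set the precision: a count of 3, taken as the floor, was 0.0851 to 0.108 CPM in the 15 libraries and 46.2 CPM in the shallow one, and floors cover counting error only. Alternatives were DESeq2 1.42.0, other scalings and filters, a replicate block, leaving out each library, protein-coding transcripts only and sums with pseudogenes. The scripts were tested on simulated data.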

Additional observations from a re-analysis of the deposited data

Results flagged for a closer look

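The region by genotype term passed an adjusted p of 0.05 for 85 members, a difference between the regions that was tested directly in edgeR. As log2 change in Cere minus that in FC it was 0.598 for Ndufb6, 0.534 for Cox7b, 0.494 for Ndufa10, 0.484 for Atp5mk, 0.456 for Cox6b1, 0.456 for Atp5mc2, 0.450 for Ndufs6, 0.422 for Cox6c, 0.420 for Ndufb8, 0.398 for Atp5mc1, 0.393 for Cox4i1 and 0.381 for Cox7a2l. It was 0.311 for Sdha, 0.298 for Ndufa4, 0.281 for Atp5mc3, 0.245 for Uqcr11, 0.221 for Cox7a2, 0.172 for Uqcrb, 0.152 for Cox6a1 and 0.151 for Atp5f1b. It lay below 0 for the isoforms Cox7b2 (-1.87), Cox7a1 (-1.265), Cox6b2 (-1.12) and Cox4i2 (-0.716). For Cox6a2 the fitted value was -8.51, which depends on how a group at 0 is fitted and is no bound.

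In some groups of 4 libraries 1 library stood apart from the other 3 by Dixon's criterion (a gap over 0.829 of the range). This was so in 11 of 222 groups looked at, and chance alone flags about 1 in 20. For genes, these were Atp5f1a at 1170 CPM in Cere_Ctrl replicate 3 (others 1155 to 1156), Atp5pd at 258 CPM in the same library (254.9 to 255.3), Cox6a1 at 383.3 CPM in FC_Upf3b-KO replicate 2 (377.5 to 378) and Cox7b2 at 2.398 CPM in that library (1.455 to 1.611). Cox8c and its transcript were at 0.02922 CPM in Cere_Ctrl replicate 1 and at 0 in the others. For transcripts, these were Atp5f1b-201 at 1336 CPM (1305 to 1309) and Atp5mj-201 at 79.41 CPM (82.48 to 82.88), both in FC_Upf3b-KO replicate 4. The others were Ndufa10-207 at 84.4 CPM in FC_Ctrl replicate 3 (75.52 to 76.25), Ndufa3-204 at 56.75 CPM in FC_Upf3b-KO replicate 2 (60.03 to 60.53) and Ndufs6-202 at 4.162 CPM in Cere_Ctrl replicate 1 (5.444 to 5.669).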

How the results depend on the processing

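The number of members called stayed within 1.5 times its value for DESeq2, both other scalings, both other filters, the joint fit of 15 libraries, protein-coding transcripts only and both sums with pseudogenes. Requiring a fold over 1.2, added after seeing the data, left 17 members in FC, 36 in Cere and 34 between the regions. Leaving out each library gave 67 to 74 members in FC, 74 to 76 in Cere, 83 to 89 for the interaction and 80 to 88 between the regions, and 57 to 66 transcripts in FC and 78 to 88 in Cere. The replicate block gave 75, 76, 84 and 82 members, and 43 transcripts in FC and 61 in Cere. Deviations of same-numbered libraries correlated at -0.107 to 0.12, with 1 of 14 over 0.1. This cannot settle whether the numbers pair the samples, since a shared animal need not show in so small a spread. With the shallow library included 30 transcripts were called in Cere. Without composition scaling, added after seeing the data, 4 of the values picked by the naming rule that passed the test in either fit changed sign, which were Cox6a1 (0.0222) and Sdhc (0.01554) in FC, Atp5f1b in Cere (0.03076) and Atp5mc1 between the regions (0.006391). Over all members, 19 of 101 in FC and 7 of 99 in Cere changed sign, of which none passed the test in both fits. Summing copies turned Ndufa12 in Cere to 0.07887 (by name) or 0.07878 (by sequence) and Cox7a2l to 0.08713. The cause was not tested, beyond what each setting changes by construction. Depth limits the restricted isoforms and the near copies, which lie within a few times the floor in some libraries.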
